A study of Mus musculus with 16 samples.

Results

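The germinal center genes described here were 7 genes, Bcl6, Mef2b, S1pr2, Rgs13, Gcsam, Mybl1 and Il21, taken from a list of germinal center B cell and helper genes and matched by symbol to the count table. All 7 were found among the 53465 genes of the table, and all 7 were among the 18251 genes tested. They were followed across 16 MC38 tumors, each from another mouse, and set against the B cell gene Ms4a1 in the 2 responders. MC38 is a mouse colon adenocarcinoma line, grown here under the skin of the right flank of female C57BL/6 mice aged 6 to 8 weeks. Mice whose tumor had reached 150 to 250 mm3 received 200 µg of antibody on days 16 and 20, and tumors were taken on day 21. The IgG control group (replicates 1 to 8) received IgG. The non-responder group (replicates 9 to 14) and the responder group (replicates 15 and 16) received aPD-1, an antibody against the checkpoint receptor PD-1. All groups carried the same cell line in the same strain, and the labels name no engineered allele in any of them. The study assigned aPD-1 tumors to response groups by CD8 staining of another piece of the same tumor at harvest, so the responder label rests on T cell infiltration and not on tumor shrinkage, and it covers 2 tumors.

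A germinal center forms in a B cell follicle when activated B cells proliferate, mutate their antibody genes and compete for help from follicular helper T cells. BCL6, a transcriptional repressor, is required for both cell types, and MEF2B is a transcription factor that acts upstream of BCL6 in B cells. S1PR2 is a receptor that holds germinal center B cells in the follicle, RGS13 dampens chemokine receptor signaling, and GCSAM is an adaptor that limits B cell motility. MYBL1 is a MYB family transcription factor found in germinal center B cells, and IL-21 is the cytokine through which follicular helper T cells support them. Several of these genes are used outside the germinal center, Bcl6 and S1pr2 among them, whereas Ms4a1 encodes CD20 and marks B cells of most stages.

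The libraries held 26603449 to 39948866 counts (median 34105782), which are expected counts rounded to whole numbers. IgG control replicate 1 had the lowest total. Levels are given as CPM, that is counts divided by the TMM-scaled library size on the usual CPM scale. Differences were tested with edgeR's quasi-likelihood test in 1 fit of 16 tumors, with Benjamini-Hochberg adjustment over all genes tested, and genes counted as called had a log2 fold change larger than 1 in size together with an adjusted p under 0.05. For single genes an exact permutation test over tumors, two-sided, was added on mean log2 CPM. Its smallest possible p was 0.0357 for 2 responders against 6 non-responders and 0.0222 for 2 responders against 8 IgG controls. The RNA came from whole tumor sections, in which fewer cells of a type and less RNA per cell cannot be told apart.

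The 7 genes fell into groups that behaved differently between responders and non-responders. Gcsam, Mef2b, Rgs13 and Il21 were low or near 0 in all tumors but the responders and rose there by 3.12 to 6.77 on the log2 scale, while Bcl6, S1pr2 and Mybl1 were well expressed in every tumor and did not pass the test. Of all genes tested, 12.5% were called higher and 0.663% were called lower in responders than in non-responders. Among the 7 members 4 were called higher and 0 lower. In the same 4 the lower responder lay above the highest non-responder, a pattern that 21.5% of all genes tested showed. Mef2b, Rgs13 and Il21 reached 10 counts in no tumor outside the responders and so passed the low-count filter only through the group in which they were high. Their count is therefore a description of these genes rather than evidence on germinal center genes at large.

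**Figure D1:**
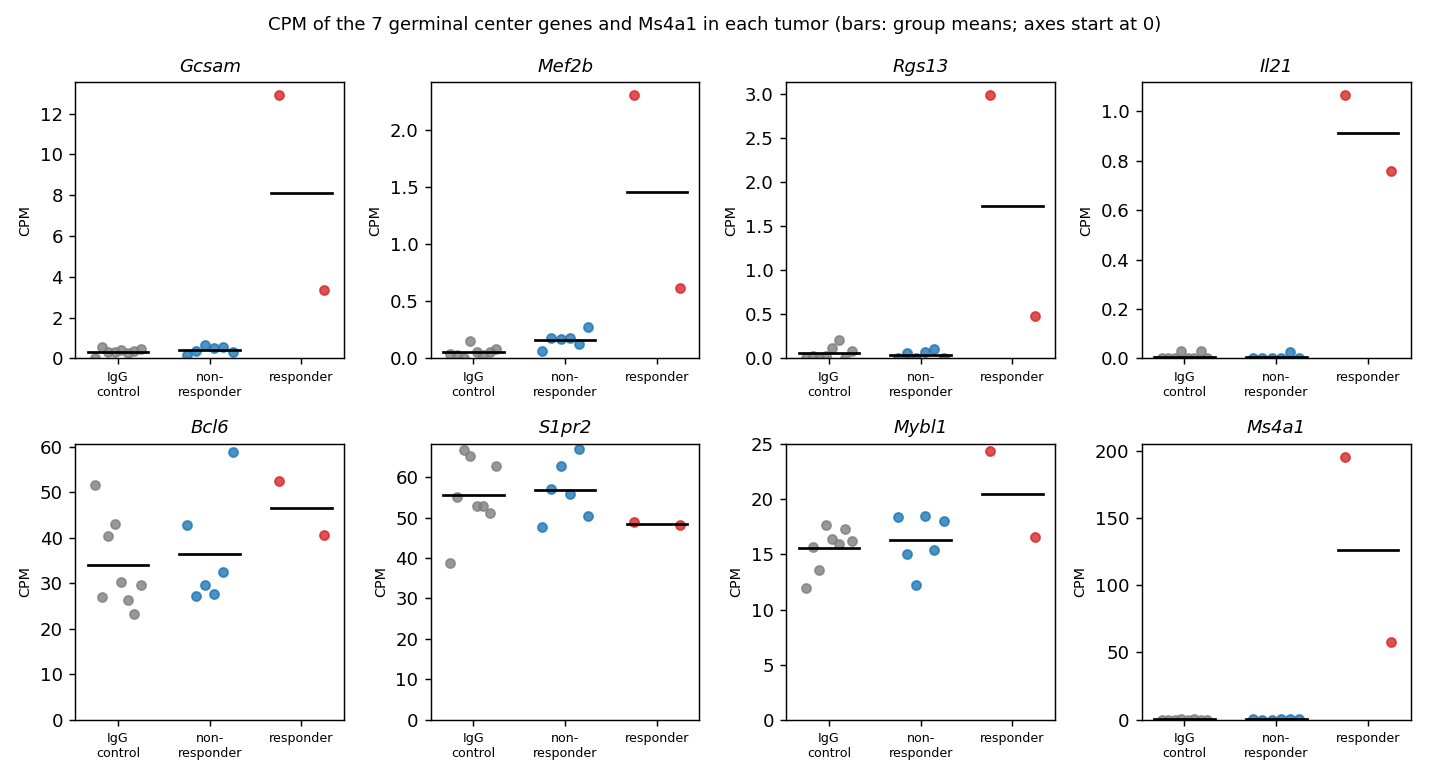
CPM of the 7 germinal center genes and Ms4a1 (y axis, linear from 0, a separate scale for each gene) in each tumor of the 3 groups (x axis), with points for tumors and bars for group means. Gcsam, Mef2b, Rgs13, Il21 and Ms4a1 have both responder points above all others, with 1 responder (replicate 15) higher than the other in each, whereas the groups overlap for Bcl6, S1pr2 and Mybl1.

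Among the transcription factors, Bcl6 was the most abundant per length and changed least in relation to its spread. The gene lies on the minus strand of chromosome 16 (chr16:23965052-23988852, GRCm38). It ranged from 23.2 to 51.6 CPM with a median of 29.9 CPM in the 8 IgG controls and from 27.3 to 58.8 CPM with a median of 31.0 CPM in the 6 non-responders. The responders were at 52.4 and 40.5 CPM. Both responders therefore fell inside the range of the non-responders, whose highest tumor, replicate 14, exceeded both. The log2 fold change was 0.35 (standard error 0.31, 95% interval -0.29 to 1.00, adjusted p = 0.489 by edgeR's quasi-likelihood test), and the exact permutation test gave p = 0.357. An increase of up to about 1 on the log2 scale lay inside that interval. A RefSeq promoter window (GRCm38.p6, 250 bases before to 50 from a start site) inside the Bcl6 gene is printed here because it held 3 matches to the STAT/BCL6 core motif TTCNNNGAA, shown in capitals, although the gene did not pass the test. It lies at chr16:23981234-23981533 on the minus strand. Another Bcl6 window, at chr16:23988803-23989102, held 1 match, and 2726 of 32851 windows (8.3%) held at least 1 on either strand.
Bcl6: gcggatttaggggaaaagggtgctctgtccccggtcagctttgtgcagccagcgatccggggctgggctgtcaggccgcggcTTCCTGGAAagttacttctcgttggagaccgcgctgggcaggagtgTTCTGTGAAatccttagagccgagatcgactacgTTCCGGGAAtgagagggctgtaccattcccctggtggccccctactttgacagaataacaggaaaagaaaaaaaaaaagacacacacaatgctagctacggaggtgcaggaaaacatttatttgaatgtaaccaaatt

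Mef2b was nearly silent outside the responders. The gene lies on the plus strand of chromosome 8 (chr8:70139711-70167488, GRCm38). Its counts in the IgG controls were 1, 1, 0, 5, 2, 1, 2 and 3 for replicates 1 to 8, and in the non-responders 2, 6, 6, 7, 5 and 8 for replicates 9 to 14. The responders had 78 and 22 counts, or 2.31 and 0.619 CPM. Both stood above the highest non-responder, at 0.271 CPM, but replicate 15 carried most of the difference. The mean over responders was 1.46 ± 1.19 CPM (SD, n = 2), and that over non-responders was 0.165 ± 0.0691 CPM (SD, n = 6). The log2 fold change was 3.12 (standard error 0.60, 95% interval 1.86 to 4.38, adjusted p = 0.00119 by edgeR's quasi-likelihood test; exact permutation p = 0.0357, the smallest possible). Mef2b overlaps Borcs8 on the same strand, so reads could be divided between them. Borcs8, a subunit of a lysosome-positioning complex, had 267 to 473 counts over the 16 tumors and a log2 fold change of 0.21 (adjusted p = 0.331). The RefSeq promoter window of Mef2b is shown because of the 4 genes that rose it alone held the octamer motif ATGCAAAT, the binding sequence of OCT factors and their B cell coactivator OCA-B. The match, in capitals, begins at position -85 relative to the start site. The window lies at chr8:70152511-70152810 on the plus strand of GRCm38.p6, and 570 of 32851 windows (1.74%) held the octamer on either strand. No octamer or TTCNNNGAA match in a window says only that these letters are absent from it.
Mef2b: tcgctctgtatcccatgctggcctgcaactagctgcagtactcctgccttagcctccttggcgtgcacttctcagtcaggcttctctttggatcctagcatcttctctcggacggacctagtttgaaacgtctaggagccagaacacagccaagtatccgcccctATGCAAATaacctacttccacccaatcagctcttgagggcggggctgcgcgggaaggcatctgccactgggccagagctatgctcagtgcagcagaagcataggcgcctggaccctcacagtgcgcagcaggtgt

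Mybl1 was moderately expressed in all tumors and did not pass the test. It lies on the minus strand of chromosome 1 (chr1:9667415-9700209, GRCm38). It ranged from 11.97 to 17.6 CPM (median 16.0 CPM) in IgG controls and from 12.2 to 18.5 CPM (median 16.7 CPM) in non-responders, and the responders were at 24.4 and 16.6 CPM. Replicate 15 was above all 14 other tumors, and replicate 16 was inside their range. The log2 fold change was 0.33 (standard error 0.18, 95% interval -0.05 to 0.71, adjusted p = 0.229 by edgeR's quasi-likelihood test; exact permutation p = 0.25). It was -0.05 without replicate 15 and 0.53 without replicate 16, so its sign rested on 1 tumor.

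S1pr2, the receptor, was also expressed in every tumor, at levels that did not differ detectably. It lies on the minus strand of chromosome 9 (chr9:20962361-20976781, GRCm38). The 8 IgG controls ranged from 38.8 to 66.6 CPM with a median of 53.9 CPM, and the 6 non-responders from 47.7 to 66.8 CPM with a median of 56.4 CPM. The responders were close together at 48.8 and 48.1 CPM, in the lower part of both ranges. The log2 fold change was -0.23 (standard error 0.17, 95% interval -0.60 to 0.14, adjusted p = 0.420 by edgeR's quasi-likelihood test; exact permutation p = 0.214). The interval leaves out any rise above 0.14 on the log2 scale in the bulk tissue.

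Rgs13, the regulator of G protein signaling, had among the 7 the greatest ratio of CPM between the responders. It lies on the minus strand of chromosome 1 (chr1:144138654-144177372, GRCm38). Its counts were 0, 1, 0, 1, 4, 8, 0 and 3 in IgG control replicates 1 to 8 and 0, 2, 0, 3, 4 and 0 in non-responder replicates 9 to 14. The responders had 101 and 17 counts, or 2.99 and 0.478 CPM. Every other tumor lay at or below 0.207 CPM, and 6 of them were at 0 counts. The log2 fold change to non-responders was 5.25 (standard error 1.01, 95% interval 3.12 to 7.38, adjusted p = 0.00121 by edgeR's quasi-likelihood test; exact permutation p = 0.0357). Pooled over tumors, 118 responder counts against 9 non-responder counts gave a rate ratio of 39.4, with a 95% counting interval of 20.0 to 88.2 that covers counting error only. The RefSeq promoter window, printed as that of a gene that rose, held neither motif and lies at chr1:144177323-144177622 on the minus strand of GRCm38.p6.
Rgs13: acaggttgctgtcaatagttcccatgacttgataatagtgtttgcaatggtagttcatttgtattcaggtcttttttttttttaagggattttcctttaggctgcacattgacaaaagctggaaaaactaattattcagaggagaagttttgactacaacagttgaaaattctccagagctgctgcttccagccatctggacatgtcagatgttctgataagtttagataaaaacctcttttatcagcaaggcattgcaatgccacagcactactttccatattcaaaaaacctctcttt

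Gcsam, the motility adaptor, was detected in most tumors and rose in the responders. It lies on the plus strand of chromosome 16 (chr16:45610380-45622867, GRCm38). The IgG controls had 0, 20, 8, 10, 15, 11, 12 and 16 counts, and the non-responders 5, 12, 22, 21, 21 and 9 counts. The responders had 436 and 119 counts, or 12.9 and 3.35 CPM. The lower responder was above the highest of the other tumors, which was at 0.634 CPM. The responder mean was 8.12 ± 6.75 CPM (SD, n = 2), the non-responder mean 0.421 ± 0.179 CPM (SD, n = 6) and the IgG control mean 0.330 ± 0.162 CPM (SD, n = 8). The log2 fold change to non-responders was 4.25 (standard error 0.61, 95% interval 2.95 to 5.54, adjusted p = 8.7e-05 by edgeR's quasi-likelihood test; exact permutation p = 0.0357). With 10 or more counts in 6 of 8 IgG controls and 4 of 6 non-responders, Gcsam was the only one of the 4 genes that rose to have a measurable level without the responders. Its RefSeq promoter window held neither motif and lies at chr16:45610190-45610489 on the plus strand of GRCm38.p6.
Gcsam: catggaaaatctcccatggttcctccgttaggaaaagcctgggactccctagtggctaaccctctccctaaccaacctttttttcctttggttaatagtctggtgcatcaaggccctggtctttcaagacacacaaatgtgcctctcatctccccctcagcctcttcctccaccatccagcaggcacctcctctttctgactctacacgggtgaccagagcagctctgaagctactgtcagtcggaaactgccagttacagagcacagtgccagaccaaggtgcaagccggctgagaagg

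Il21, the helper cytokine, was close to undetected in the 14 other tumors. It lies on the minus strand of chromosome 3 (chr3:37222759-37232636, GRCm38). A single count was found in each of IgG control replicates 4 and 7 and non-responder replicate 13, and the other 11 tumors had 0 counts. The responders had 36 and 27 counts, or 1.06 and 0.759 CPM, and in contrast to Gcsam, Mef2b and Rgs13 they lay close together. The mean was 0.912 ± 0.216 CPM (SD, n = 2). The rate ratio of 63 responder counts to the 1 non-responder count was 189, with a 95% counting interval of 32.7 to 7589. edgeR's quasi-likelihood test gave a log2 fold change of 6.77 (standard error 0.80, 95% interval 5.08 to 8.46, adjusted p = 1.1e-05), a value that depends on the prior count (exact permutation p = 0.0357). The standard error and interval are derived from that value and the test's F statistic. With 1 non-responder count they are narrower on the log2 scale than the counting interval, and so understate the uncertainty. The RefSeq promoter window held neither motif and lies at chr3:37232587-37232886 on the minus strand of GRCm38.p6.
Il21: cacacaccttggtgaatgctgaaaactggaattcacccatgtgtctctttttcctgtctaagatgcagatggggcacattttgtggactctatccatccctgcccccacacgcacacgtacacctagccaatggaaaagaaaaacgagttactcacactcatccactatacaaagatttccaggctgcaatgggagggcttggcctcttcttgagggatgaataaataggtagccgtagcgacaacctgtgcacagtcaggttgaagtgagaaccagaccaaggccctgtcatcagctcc

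Against IgG controls the responders showed higher levels of the same 4 genes. Of all genes tested, 14.3% were called higher and 0.641% lower, and 19.3% had both responders above every IgG control. Of the 7 members 4 were called higher, 0 were called lower, and 4 had both responders above every IgG control. Here too Mef2b, Rgs13 and Il21 passed the low-count filter only through the responders. The count therefore describes these genes and is not evidence on germinal center genes at large. The log2 fold changes by edgeR's quasi-likelihood test were 4.59 for Gcsam (standard error 0.56, adjusted p = 1.2e-05), 4.63 for Mef2b (standard error 0.58, adjusted p = 1.6e-05), 4.75 for Rgs13 (standard error 0.89, adjusted p = 7.8e-04) and 6.36 for Il21 (standard error 0.70, adjusted p = 3.8e-06). The exact permutation p of all 4 was 0.0222, the smallest possible. For Il21 the standard error of 0.70 understates the uncertainty. Its 63 responder counts against 2 in IgG controls gave a rate ratio with a counting interval of 32.3 to 1027. Bcl6 was at 0.45 (95% interval -0.17 to 1.07, adjusted p = 0.309), S1pr2 at -0.20 (95% interval -0.56 to 0.16, adjusted p = 0.454) and Mybl1 at 0.39 (95% interval 0.03 to 0.76, adjusted p = 0.119). This comparison uses the same 2 responders as the one with non-responders, so the agreement of the 2 lists of genes is not an independent repeat. The median log2 fold change over all genes tested was 0.02 against non-responders and -0.02 against IgG controls.

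Between non-responders and IgG controls no member was called. Of all genes tested 0% were called by edgeR's quasi-likelihood test, with 694 genes at an unadjusted p under 0.05, and DESeq2 called 4 genes, none of them a member. Mef2b was the one member with an unadjusted p under 0.05. Its mean was 0.0547 ± 0.0459 CPM (SD, n = 8) over the IgG controls against the 0.165 CPM over non-responders given above, a log2 fold change of 1.51 (standard error 0.52, unadjusted p = 0.0106, adjusted p = 0.987 by edgeR). The exact permutation test of this single gene gave p = 0.00633 without adjustment for the 7 members. The tumors behind it held at most 8 counts each, and 4 of 6 non-responders lay above every IgG control. The other 6 members had log2 fold changes from -0.50 (Rgs13) to 0.34 (Gcsam), with adjusted p of 0.987 to 0.990 by edgeR. Without IgG control replicate 1, the tumor with the lowest total, 3219 genes had an unadjusted p under 0.05 and 2 were called, again none of them a member.

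**Figure D2:**
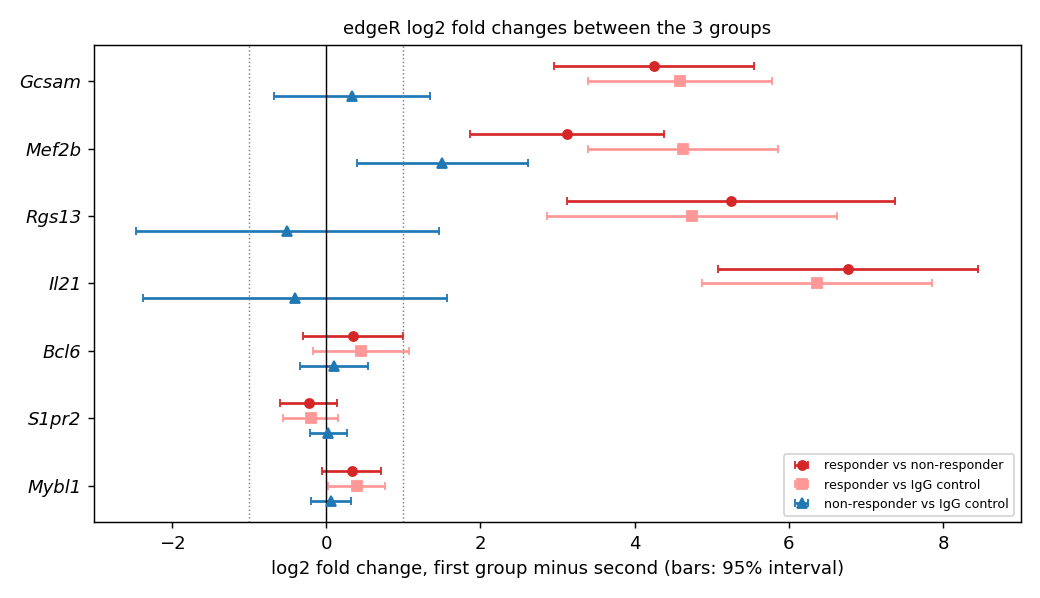
edgeR log2 fold changes of the 7 germinal center genes (x axis, first group minus second, bars are 95% intervals) for the 3 comparisons (red circles, responder vs non-responder; pink squares, responder vs IgG control; blue triangles, non-responder vs IgG control), with dotted lines at -1 and 1. The red and pink intervals of Gcsam, Mef2b, Rgs13 and Il21 lie wholly above 1, though the Il21 bars are narrower than counting error allows. Those of Bcl6 and S1pr2 include 0, and those of Bcl6 reach up to 1.00 (red) and 1.07 (pink). For Mybl1 the red interval includes 0 and the pink one, 0.03 to 0.76, does not.

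Much of the rise of Gcsam, Mef2b and Rgs13 came from 1 tumor, replicate 15, at 3.85, 3.73 and 6.24 times the CPM of replicate 16. Gcsam leaned on that tumor about as much as Mef2b, with a log2 fold change of 4.25 with both responders and 2.91 without replicate 15. Without responder replicate 15, Mef2b fell to a log2 fold change of 1.81 against non-responders (adjusted p = 0.291 by edgeR's quasi-likelihood test) and Rgs13 to 3.34 (adjusted p = 0.204), so 2 of the 4 calls were lost. Gcsam stayed called at 2.91 (adjusted p = 0.0293), and Il21 stayed called at 6.44 (adjusted p = 0.00101). Against IgG controls only Rgs13 was lost without replicate 15, at 2.84 (adjusted p = 0.244). In these fits the lone responder was assumed to vary like the other groups. Without replicate 16 the 4 genes stayed called in both comparisons, and leaving out any single non-responder or IgG control changed no member's call.

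**Figure D3:**
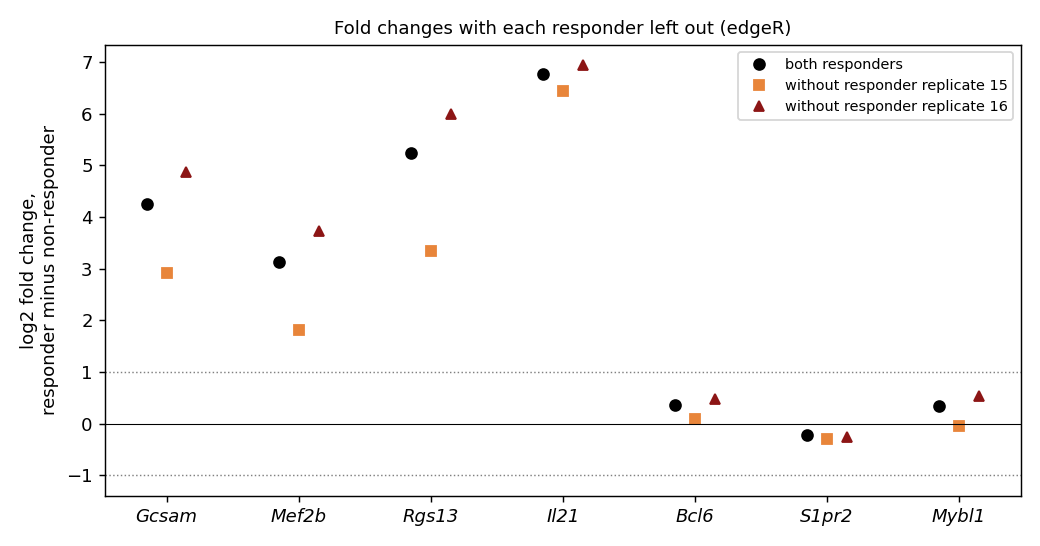
edgeR log2 fold change of each member, responder minus non-responder (y axis), with both responders (black circles), without replicate 15 (orange squares) and without replicate 16 (dark red triangles), and dotted lines at 1 and -1. Gcsam, Mef2b and Rgs13 drop by over 1 on the log2 scale without replicate 15, whereas Il21 stays above 6.

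Relative to Ms4a1, the members again fell into groups. Ms4a1 itself had 6608 counts in replicate 15 and 2047 counts in replicate 16, that is 195 and 57.6 CPM, against at most 35 counts in any other tumor. Its log2 fold change to non-responders was 7.74 (standard error 0.77, adjusted p = 2.3e-06 by edgeR's quasi-likelihood test). Unless another measure is named, values in this paragraph are counts of a member per 100 counts of Ms4a1 in the same tumor. Their exact (Clopper-Pearson) 95% intervals cover counting error only. Gcsam was at 6.60 (5.97 to 7.27) in replicate 15 and 5.81 (4.79 to 6.997) in replicate 16. Mef2b was at 1.18 (0.932 to 1.48) and 1.07 (0.672 to 1.63). The ratios of these genes were 1.13 and 1.10 times as high in replicate 15 as in replicate 16, while Ms4a1 itself differed 3.39-fold in CPM. Rgs13 was at 1.53 (1.24 to 1.86) and 0.830 (0.483 to 1.33), 1.84 times as high in replicate 15, and this factor was 1.53 on Cd79a and 1.59 on the geometric mean of the B cell list. The remaining members had a lower ratio in replicate 15. Il21 was at 0.545 (0.381 to 0.755) in replicate 15 and 1.32 (0.867 to 1.92) in replicate 16. Bcl6 was at 26.8 (25.4 to 28.3) and 70.4 (65.8 to 75.3), S1pr2 at 24.98 (23.7 to 26.4) and 83.6 (78.4 to 89.2), and Mybl1 at 12.5 (11.6 to 13.4) and 28.8 (26.2 to 31.6). For Il21, Bcl6, S1pr2 and Mybl1 the intervals did not overlap. None of these genes was itself lower in replicate 15 on the CPM scale. Replicate 15 exceeded replicate 16 by a factor of 1.40 for Il21, 1.29 for Bcl6, 1.01 for S1pr2 and 1.47 for Mybl1. Their lower ratios therefore reflect the larger Ms4a1 difference. S1pr2 also spanned 38.8 to 66.8 CPM over the tumors with at most 35 Ms4a1 counts. Whether these ratios describe B cells was not tested. No replicate test is possible for a difference between 2 single tumors.

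**Figure D4:**
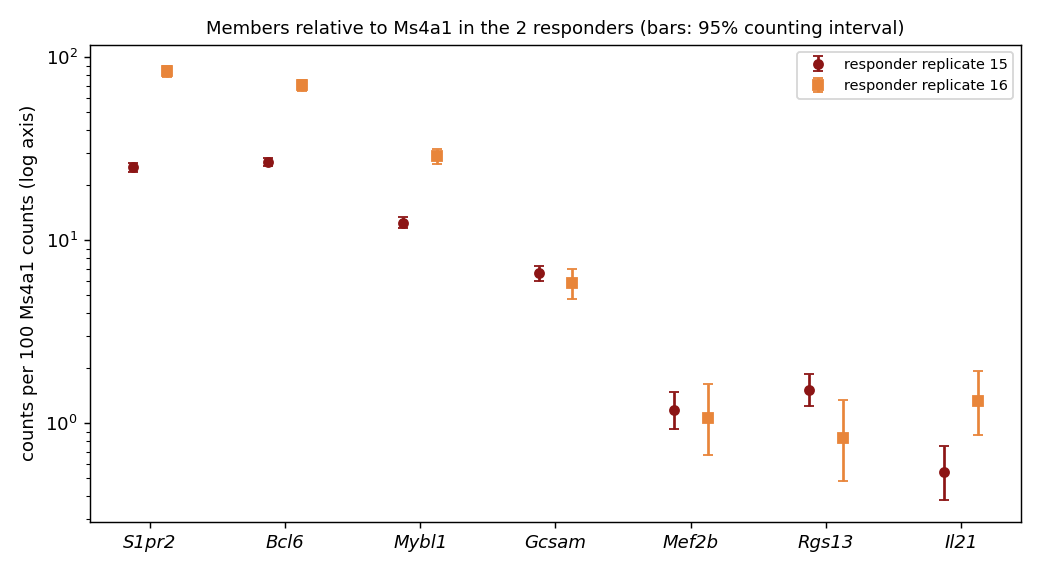
Counts of each member per 100 counts of Ms4a1 (y axis, log scale) in responder replicates 15 (dark red circles) and 16 (orange squares), with exact 95% counting intervals. Gcsam and Mef2b are nearly level between the responders. Rgs13 is higher in replicate 15 with overlapping intervals, and S1pr2, Bcl6, Mybl1 and Il21 are higher in replicate 16 with intervals that do not overlap.

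The choice of B cell gene mattered for the finer order. With Ms4a1 as denominator, 3 members (Mef2b, Rgs13 and Gcsam) had a higher ratio in replicate 15 than in replicate 16, and with Cd79a or the geometric mean of the B cell list only Rgs13 did. The ratio of replicate 15 to replicate 16 was 1.13 for Gcsam on Ms4a1 and 0.946 on Cd79a, and 1.10 for Mef2b on Ms4a1 and 0.916 on Cd79a. Both stayed close to 1. Il21, a T cell product, was also set against T cell genes, a choice made after the data were seen. It was at 2.37 per 100 Cd4 counts (1.66 to 3.30) in replicate 15 and 2.14 (1.41 to 3.13) in replicate 16, which overlap, where the Ms4a1 ratios did not. Per 100 Cd3e counts it was at 7.56 (5.23 to 10.6) and 5.33 (3.47 to 7.84).

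In the other 14 tumors the same ratios were of another size. Those tumors held 184 Ms4a1 counts in all. Per 100 of them there were 98.9 Gcsam counts (80.1 to 122), 26.6 Mef2b counts (19.0 to 36.7) and 14.1 Rgs13 counts (8.99 to 21.4), and each of these intervals lay above both responder values. The pooled values hide a difference between the groups beyond counting error. Gcsam was at 151 (108 to 212) in IgG controls and 73.2 (55.1 to 96.8) in non-responders. Rgs13 was at 27.9 (15.3 to 48.3) and 7.32 (3.27 to 14.3), while Mef2b was at 24.6 and 27.6. IgG control replicate 4 held 30 of the 61 Ms4a1 counts of its group. For Bcl6, S1pr2 and Mybl1 the pooled values were 8824, 14596 and 4136 per 100 Ms4a1 counts. On these pooled counts, with counting error alone taken into account, the difference of Gcsam, Mef2b and Rgs13 between responders and other tumors was thus smaller than that of Ms4a1. Il21, at 1.63 per 100 Ms4a1 counts (0.333 to 4.84) from 3 counts, could not be placed apart from the responders at this depth.

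The difference between the 2 responders placed the members on separate scales as well. Over the 2286 genes called higher in responders, the median CPM in replicate 15 was 1.82 times that in replicate 16, with quartiles of 1.29 and 2.76. Rgs13 was 6.24 times as high in replicate 15, Gcsam 3.85 times and Mef2b 3.73 times. These 3 lay above Ms4a1, at 3.39 times, as did 16.2% of the genes called higher. Mybl1 was at 1.47 times, Il21 at 1.40 times, Bcl6 at 1.29 times and S1pr2 at 1.01 times. The B cell list had a median of 3.999 times and the other germinal center B cell genes 2.39 times. The follicular helper T cell list had a median of 1.40 times and the T cell list 1.01 times. Gcsam, Mef2b and Rgs13 lay near or above the median of the B cell list, and Il21 lay at the median of the helper list. Those places were not particular to these lists. Medians were 5.99 times for fat cell, 3.06 for follicular dendritic cell, 2.83 for lymph node stroma and venule, and 1.25 for plasma cell genes. Helper genes ran from 0.754 times (Pdcd1) to 3.74 times (Tox2), and the Il21 value rests on 36 and 27 counts.

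**Figure D5:**
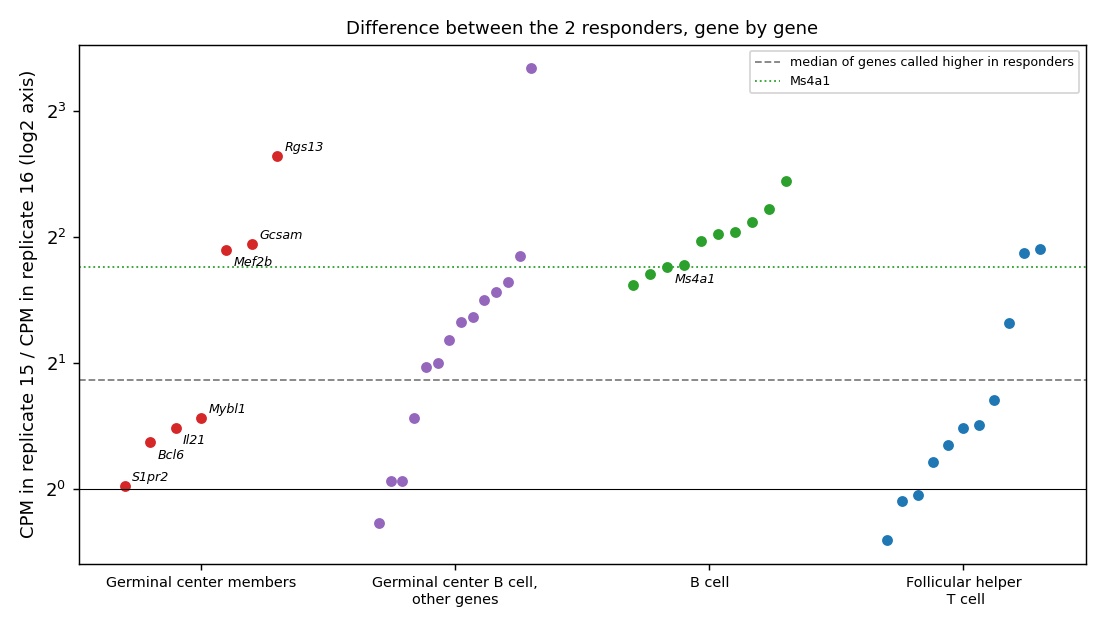
CPM in replicate 15 divided by CPM in replicate 16 (y axis, log2 scale) for the genes of 4 lists (x axis, sorted within each list), with the median of the 2286 genes called higher in responders (dashed, 1.82) and Ms4a1 (dotted, 3.39). Rgs13, Gcsam and Mef2b lie above the Ms4a1 line, and Mybl1, Il21, Bcl6 and S1pr2 lie below the dashed line.

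Levels were compared between genes only per kilobase of exon, as CPM per kb. In IgG controls S1pr2 was at 6.98, Bcl6 at 5.06 and Mybl1 at 2.88 CPM per kb, and in non-responders they were at 7.12, 5.43 and 3.01. S1pr2 and Bcl6 overlapped in range there, Bcl6 and Mybl1 did not, and Gcsam, Mef2b, Rgs13 and Il21 all lay below Mybl1 without overlap. In the order Gcsam, Mef2b, Rgs13 and Il21, neighbours overlapped in both groups, with Gcsam at 0.0965 CPM per kb in IgG controls and 0.123 in non-responders. In responders Ms4a1 stood first at 20.4 CPM per kb, above every member without overlap. Bcl6 followed at 6.94, S1pr2 at 6.08, Mybl1 at 3.79, Gcsam at 2.37, Rgs13 at 1.05, Mef2b at 1.04 and Il21 at 0.173. The ranges of S1pr2 and Mybl1 and those of Mef2b and Il21 did not overlap, and other neighbouring members did. Bcl6 and S1pr2, and Rgs13 and Mef2b, had changed places relative to the other groups, and both pairs overlapped in range in every group.

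Other genes of the germinal center programme rose along with Gcsam, Mef2b and Rgs13, though not all of them. Counts of list genes below are those called in responders against non-responders, to be read against 12.5% of all genes tested, and no list had a gene called lower. Of 14 other germinal center B cell genes 10 were called higher, with a median log2 fold change of 2.17. Pou2af1, which encodes the coactivator OCA-B, was at 8.05 (adjusted p = 3.8e-07 by edgeR). Plxnb2, a semaphorin receptor, was at -0.20, and Ezh2, a histone methyltransferase, at -0.08, neither past the test. Both were already well expressed in non-responders, at means of 167 and 111 CPM, and whether their B cell part changed was not tested. All 10 B cell genes were called higher with a median of 7.56, Cd79a, a chain of the B cell receptor complex, at 8.18. All 8 naive and follicular B cell genes were called higher with a median of 5.92, Ighd, the IgD constant region, at 7.98 and Fcer2a, which encodes CD23, at 7.85. The members that rose therefore did so together with genes of B cells outside germinal centers, and those of Gcsam, Mef2b and Rgs13 were smaller log2 differences than the median of either list.

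Genes listed for helper and stromal partners of the germinal center were called higher as well, but these lists are not separate from those above. Cxcr5 is also in the naive and follicular B cell list and Cr2 in the B cell list. Madcam1 is in both the follicular dendritic cell list and the lymph node stroma list below. In the follicular helper T cell list 9 of 11 tested genes were called, with a median of 2.63, while Il4 and Ascl2 were too low to test. Cxcr5, the follicle-homing receptor that B cells also carry, was at 7.09, and Btla, an inhibitory receptor shared with B cells, at 6.05. Maf, a transcription factor of helper cells, was at 0.86 (adjusted p = 0.0211 by edgeR) and did not reach the fold threshold, and Pdcd1, which encodes PD-1, was at 1.16 (adjusted p = 0.176). Against IgG controls 10 of 11 were called. Of 6 genes for the IL-21 receptor and its signaling 2 were called higher, with a median of 0.79. These were Il21r, the receptor chain, at 1.95 (adjusted p = 9.1e-05 by edgeR) and Il2rg, the shared gamma chain, at 1.17. Stat3, the main signal transducer of IL-21, was at 0.45 and did not pass the test. Of 7 follicular dendritic cell genes with a match 6 were called, with a median of 4.45. Cr2, a complement receptor that B cells share, was at 7.98 and Cxcl13, the B cell follicle chemokine, at 5.53, whereas Vcam1 was at 0.19. Vcam1 had a mean of 201 CPM in non-responders already.

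Genes linked to the members by regulation or family moved unevenly. Of 7 genes known to be repressed by BCL6 in B cells, 4 were called higher, with a median of 1.47. S1pr1, the egress receptor, was at 2.03 and Cd69, an activation marker, at 1.87. Prdm1, the plasma cell regulator, was at -0.25 and Ccnd2, a cyclin, at -0.14, neither past the test. In non-responders Prdm1 and Ccnd2 already had means of 20.8 and 203 CPM. Among 16 tested paralogues and signaling partners of the members 7 were called higher, with a median of 0.25. S1pr4, a lymphocyte S1P receptor, was at 4.64 where its paralogue S1pr2 was at -0.23. Myb, the paralogue of Mybl1, was at 2.73. Rgs1 was at -0.53 and Mybl2, a cell cycle gene, at -0.38, neither called. S1pr5 and Il2 were too low to test. Of 7 plasma cell genes 4 were called, with a median of 4.32, Jchain at 8.00 and Mzb1 at 7.96. Sdc1, the plasma cell marker CD138, was at -0.17, from a mean of 70.4 CPM in non-responders.

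Markers of other tissues and cell types moved in the same 2 tumors, and their part in the results was not tested. The summed level of 10 B cell genes was 3.002 to 9.50 CPM in IgG controls, 3.07 to 8.35 CPM in non-responders, and 1480 and 389 CPM in replicates 15 and 16. The sum of 6 lymph node stroma and high endothelial venule genes was 0.191 to 2.13 CPM, 0.893 to 4.51 CPM, and 379 and 119 CPM, all 6 called higher with a median log2 fold change of 6.96. Glycam1, a ligand on high endothelial venules, was at 8.32 and Ccl19, a T zone chemokine, at 7.27, and 5 of the 6 genes were under 1 CPM in all IgG controls, as were 5 of the 6 in all non-responders. Fat cell genes summed to 16.8 to 137 CPM in IgG controls, 20.9 to 88.8 CPM in non-responders, and 2165 and 379 CPM in the responders, 5 of 5 called with a median of 5.54. Epithelial genes summed to 4.797 to 10.1 CPM, 4.43 to 11.9 CPM, and 116 and 50.4 CPM, 4 of 5 called with a median of 5.61. Every one of these sums was higher in replicate 15 than in replicate 16, as were Gcsam, Mef2b and Rgs13. The T cell sum, in contrast, was 221 CPM in replicate 15 and 212 CPM in replicate 16, against 7.38 to 28.6 CPM in IgG controls and 11.8 to 32.95 CPM in non-responders, with 7 of 7 called and a median of 3.44. The T cell list is not independent of the groups, since CD8 staining defined them.

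Few proliferation, macrophage or muscle genes were called. Of 8 proliferation genes 0 were called, with a median log2 fold change of -0.31, and their sum was 1585 and 2054 CPM in the responders against 1756 to 2615 CPM in non-responders. At adjusted p alone Cdk1 was at -0.69 (adjusted p = 0.00259 by edgeR) and Aurkb at -0.58 (adjusted p = 0.00788), under the fold threshold. Of 8 macrophage and monocyte genes 1, Mrc1, was called, at 1.65, and the median was 0.44. Against IgG controls 2 of 8 were called, Mrc1 at 1.45 and Lyz2 at 1.06. Their summed level was 2092 and 2335 CPM in replicates 15 and 16, above all other tumors, which lay at 804 to 1575 CPM in IgG controls and 818 to 1948 CPM in non-responders. Of 5 skeletal muscle genes 0 were called, with a median of -1.74. Between non-responders and IgG controls no gene was called in any of these lists.

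The genes whose profile over the 16 tumors was nearest to each member were sought by the root mean square (RMS) difference of mean-centred log2 CPM, a description over tumors that include the 2 responders. The nearest to Rgs13 was Nuggc, a germinal center nuclear GTPase, at an RMS difference of 0.59 log2 units, where the median gene was at 1.502. Gcsam was nearest to Rasgrf2 (0.48) and H2-Oa, a modulator of class II antigen loading in B cells (0.50), with a median gene at 1.64. Mef2b was nearest to Mpzl2 (0.50) and Lamc3 (0.51), with a median gene at 1.31. Il21 was nearest to Kcnj16 (0.23) and the immunoglobulin segment Ighv1-69 (0.23), with a median gene at 1.35, all very low outside the responders. The members that did not pass the test had neighbours that did not pass it either. Bcl6 was nearest to Llgl2 (0.14) and Zfp36l1 (0.16), S1pr2 to Carmil1 (0.08) and Ankrd50 (0.09), and Mybl1 to Fam208a (0.11) and Zbtb1 (0.13). Of these 14 names, counting Kmo as the second neighbour of Rgs13, 9 were kept with a prior count of 0.5 and 2 over the 14 tumors that are not responders, so the likeness of most pairs rested on the responders or on the handling of low counts.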

How the data were processed

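Bulk RNA-seq of 16 MC38 tumors was analysed, grouped by the labels into 8 tumors given IgG and 8 given aPD-1, of which 2 were responders. Poly(A) RNA from 2 sections of 100 µm of each frozen tumor was made into strand-specific libraries. The authors aligned paired reads to GRCm38 with STAR 2.6 and deposited expected counts per gene from RSEM 1.3.0 on Ensembl annotation, with no normalization. RSEM divides reads that fit several genes, and 7.83% of values were not whole within 0.001. Its strand setting is not given in the sources used here. Values were rounded. The 92 entries that name no gene, with at most 185 counts in a tumor, were left out. Symbols matched 53274 of 53465 identifiers. No pair of tumors agreed within sampling noise (over 120 pairs, chi-square divided by its degrees of freedom was at least 15.2).

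edgeR 4.0.16 in R 4.3.3 was used with its low-count filter over 3 groups, TMM scaling, robust quasi-likelihood dispersion and Benjamini-Hochberg adjustment over 18251 genes. Standard errors were derived from the log2 fold change and F, and intervals from the t quantile with the fitted degrees of freedom. For Il21 these are too narrow, because non-responders and IgG controls held almost no counts of it. Log2 CPM used a prior count of 2. Exact permutation tests, ratios and profiles used scipy 1.17.1, pandas 2.3.3 and numpy 2.4.6 in Python 3.11.15, with exact 95% intervals for counting error. Figures used matplotlib 3.10.9. The fit was tested on simulated counts. Alternatives were DESeq2 1.42.0, median-of-ratios (RLE) scaling, no low-count filter, a stricter filter (10 or more counts in 8 or more tumors), a fit of the 2 groups compared, leaving out each tumor, and other denominators, with Cd4 and Cd3e added after the data were seen.

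The members and lists (B cell, naive and follicular B cell, other germinal center B cell, follicular helper T cell, IL-21 receptor and signaling, follicular dendritic cell, BCL6-repressed, paralogues and partners, plasma cell, lymph node stroma with high endothelial venule, T cell, proliferation, macrophage and monocyte, epithelial, fat cell and skeletal muscle) were chosen with earlier results of these data known. Named genes were the members, the denominators, in each list the 2 tested genes at either end of the order by log2 fold change against non-responders (some of them given only within counts), and the 2 genes nearest in profile to each member. Values of a few such genes are not reported here. Fdcsp had no match by symbol. Cr2, Cxcr5, Gpr183, S1pr1, Prdm1 and Madcam1 each stand in several lists and are counted in each. Promoter windows are from RefSeq on GRCm38.p6 and matched 6 of 7 members, all but Mybl1. Motifs were searched on both strands.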

Additional observations from a re-analysis of the deposited data

Results flagged for a closer look

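Each member was examined in the IgG control and non-responder groups for a tumor standing apart by Dixon's criterion, 14 groups of values in all, and 2 stood apart. The criterion is set to flag about 1 in 20 groups of normally distributed values. That rate does not hold for groups of counts near 0, such as those of Mef2b, Rgs13 and Il21. Gcsam in IgG control replicate 1 was at 0 CPM, whereas the other 7 IgG controls lay between 0.285 and 0.547 CPM, a gap of 0.758 of the whole range against a critical value of 0.526. This was also the tumor with the lowest total count. Il21 in non-responder replicate 13 was at 0.0257 CPM, which is 1 count, whereas the other 5 non-responders were at 0. The gap was thus the whole range (critical value 0.625). Any group with 1 count in a single tumor and 0 in the others gives this flag, so it says nothing more about that tumor.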

How the results depend on the processing

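No paired analysis was possible because the replicate numbers 1 to 16 are not shared between groups. The 4 calls against non-responders and against IgG controls were kept with DESeq2, with RLE scaling, without the low-count filter (30852 genes tested) and in fits of only the 2 groups compared. Requiring at least 10 counts in at least 8 tumors left 15901 genes and 1 call in each comparison, Gcsam, because Mef2b, Rgs13 and Il21 were then not tested. Leaving out each tumor in turn gave 2 to 4 calls against non-responders and 3 to 4 against IgG controls, the lowest without responder replicate 15, and 0 calls between non-responders and IgG controls. The number of members with every responder in the fit above every non-responder was 4 to 5 when each tumor was left out, and 4 with RLE scaling. The 5 were reached without responder replicate 16, where replicate 15 alone stood for the group and Mybl1 was added. The number of members with a higher ratio to B cell genes in replicate 15 fell from 3 to 1 with Cd79a or the geometric mean of the B cell list as denominator, and the cause was not tested. The Il21 ratio of replicate 15 to replicate 16 was 0.41 on Ms4a1, 1.11 on Cd4 and 1.42 on Cd3e. Of 14 nearest genes, 14 were kept with RLE scaling, 9 with a prior count of 0.5 and 2 over the 14 tumors that are not responders. Depth limited Il21, Rgs13 and Mef2b, which had at most 8 counts in any tumor outside the responders.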
